A study of Mus musculus with 12 samples.

Results

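Open chromatin was examined around 8 genes through which the vessel lining senses blood flow and sets vascular tone: Piezo1, Cav1, Klf2, Klf4, Nos3, Thbd, Edn1 and Ednrb. A peak belonged to one of them when that gene had the nearest protein-coding gene span in GRCm38, at most 100 kb away. All 8 genes matched the annotation, and their peaks merged into 35 regions, of 48003 regions in the whole series. They had 26 peaks in WDM-WDO and 26 in WDM-CDO, and 18 in CDM-WDO and 13 in CDM-CDO. Accessibility was measured by ATAC-seq, which marks accessible DNA by inserting sequencing adapters with a transposase, and the cells were mouse aortic endothelial cells (MAECs).

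The 8 ATAC-seq samples formed 4 groups of 2. In WDM-WDO both the mothers and the offspring had WD, in WDM-CDO the mothers alone, in CDM-WDO the offspring alone, and in CDM-CDO neither. The offspring of both WDO groups had been given WD again for 4 weeks. A maternal high-fat diet is named in the title, and M and O were read as mothers and offspring. The peak names carry the tag 12w in both WDO lists and 08w in both CDO lists, and the tag and the offspring's diet cannot be told apart. The sources used here give no genotype, strain, age or number of animals. A further 4 samples of the histone mark H3K27ac were not analysed here.

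Each group has 1 peak list, so no difference between groups has a replicate check or a p-value. The lists held 26275 peaks in WDM-WDO and 28319 in WDM-CDO, and 18962 in CDM-WDO and 22178 in CDM-CDO, with a genome background of 6.08, 5.59, 5.49 and 4.84 reads. Of 10 endothelial markers, 3, 5, 5 and 3 had a peak within 1 kb of a start site or gene end in these lists. Their summed scaled summit reads were 70.0, 122, 199 and 68.9. Cdh5, Pecam1, Tek, Vwf and Egfl7 had no such peak in any list. Of 10 macrophage and monocyte markers 9, 3, 2 and 3 had one, with sums of 387, 117, 137 and 128, and C1qc lacked one in all lists. Of 10 lymphocyte markers 4, 7, 1 and 7 had one, with sums of 99.0, 376, 16.6 and 515, and Cd8a and Bcl11b lacked one in all lists. Of 8 smooth muscle markers 1, 2, 1 and 3 had one, with Myh11, Cnn1, Lmod1 and Myocd lacking one in all lists, and of 8 fibroblast markers 2, 2, 1 and 1. The part of these other cells in the results below was not tested.

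Laminar flow is sensed in endothelium by channels and membrane invaginations, among them PIEZO1 and the caveolae built from caveolin-1. It induces the transcription factors KLF2 and KLF4, which favour nitric oxide synthesis by the product of Nos3 and the anticoagulant surface receptor thrombomodulin, the product of Thbd. Endothelin-1, the product of Edn1, constricts vessels through receptors on smooth muscle, whereas the receptor encoded by Ednrb on endothelium promotes nitric oxide release and clears endothelin.

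The promoters on which the results turn are shown as the 250 bases before and 50 bases after the start site, taken from RefSeq with build GRCm38.p6. They are those of Klf2, the most strongly open, of Edn1 and Ednrb, each without a peak in 1 list, and of Cav1, whose 2 start sites were called in different lists. Capitals mark matches on either strand to CACCC, bound by KLF factors, to the GC box GGGCGG, to the AP-1 motif TGANTCA, to the shear stress response element GAGACC, to the TATA box TATAAA, to the ETS motif CCGGAAG, to the GATA motif GATAA and to the MEF2 motif. No match overlapped another.
Klf2, chr8:72318812-72319111, plus strand: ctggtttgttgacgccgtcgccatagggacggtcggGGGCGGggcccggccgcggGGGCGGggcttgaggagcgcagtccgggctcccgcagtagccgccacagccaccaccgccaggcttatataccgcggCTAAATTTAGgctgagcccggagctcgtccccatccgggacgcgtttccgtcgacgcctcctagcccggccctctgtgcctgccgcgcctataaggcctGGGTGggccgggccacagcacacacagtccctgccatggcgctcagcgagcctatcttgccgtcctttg
Edn1, chr13:42301226-42301525, plus strand: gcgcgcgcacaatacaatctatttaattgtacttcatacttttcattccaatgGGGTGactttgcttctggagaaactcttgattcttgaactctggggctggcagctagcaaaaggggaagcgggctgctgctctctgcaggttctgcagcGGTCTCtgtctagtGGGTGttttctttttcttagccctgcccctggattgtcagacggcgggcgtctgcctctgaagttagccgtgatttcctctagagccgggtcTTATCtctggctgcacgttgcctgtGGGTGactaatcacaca
Ednrb, chr14:103843652-103843951, minus strand: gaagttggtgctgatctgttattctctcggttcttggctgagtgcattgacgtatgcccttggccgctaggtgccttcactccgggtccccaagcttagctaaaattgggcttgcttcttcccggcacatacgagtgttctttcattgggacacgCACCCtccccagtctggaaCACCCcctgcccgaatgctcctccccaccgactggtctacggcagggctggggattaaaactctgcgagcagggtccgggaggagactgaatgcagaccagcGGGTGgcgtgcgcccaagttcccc
Cav1, first start site, chr6:17306085-17306384, plus strand: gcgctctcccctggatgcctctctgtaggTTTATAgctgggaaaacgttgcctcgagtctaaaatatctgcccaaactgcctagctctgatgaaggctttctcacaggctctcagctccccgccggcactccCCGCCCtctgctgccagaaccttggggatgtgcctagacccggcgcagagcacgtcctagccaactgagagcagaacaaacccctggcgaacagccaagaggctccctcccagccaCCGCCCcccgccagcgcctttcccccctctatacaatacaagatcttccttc
Cav1, second start site, chr6:17307390-17307689, plus strand: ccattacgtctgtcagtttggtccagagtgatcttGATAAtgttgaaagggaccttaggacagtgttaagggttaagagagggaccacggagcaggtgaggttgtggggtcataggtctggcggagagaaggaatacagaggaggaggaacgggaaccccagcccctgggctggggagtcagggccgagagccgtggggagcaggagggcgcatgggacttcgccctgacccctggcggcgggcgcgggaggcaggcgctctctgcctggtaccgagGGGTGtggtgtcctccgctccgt

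Of the members, 6 had promoters in the table, with 7 start sites; Nos3 and Thbd were described by the ends of their spans. The Klf2 promoter held the MEF2 motif, CTAAATTTAG, from 118 bases before the start site, and was the 1 of 7 windows with it, against 2.61% of all 21045 windows of protein-coding genes. CACCC was found in 5 of 7 windows, against 59.8% of all, with 3 matches each in Edn1 and Ednrb. The shear stress response element was in 2 of 7, those of Edn1 and Piezo1, against 17.0% of all, and the GC box in 4 of 7, those of Klf2, Klf4, Piezo1 and the first start site of Cav1, against 46.7%. GATAA was in 2 of 7 (22.5% of all), and TATAAA in 2 of 7 (12.7%). Neither the AP-1 motif (7.04% of all) nor the ETS motif (11.7%) occurred in these windows.

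WDM-WDO held 26 of the 35 regions, WDM-CDO 25, CDM-WDO 17 and CDM-CDO 13. These are 74.3%, 71.4%, 48.6% and 37.1% of them, against 58.5%, 62.5%, 39.8% and 49.0% of the 41492 regions within 100 kb of any protein-coding gene, so the lists of WD mothers also held more regions overall. With every list shortened to its 18962 strongest peaks the members had 27 regions, and the lists held 22, 17, 17 and 13 of these. The shares were 81.5%, 63.0%, 63.0% and 48.1%, against 60.9%, 61.2%, 55.3% and 59.8% of all regions. WDM-CDO was then near the share of all regions and held no more member regions than CDM-WDO. CDM-WDO, the shortest list of all, held more member regions than CDM-CDO in either case. In all 4 lists 11 regions were called (31.4%, against 24.6% of all regions), and 15 in 1 list only (42.9%, against 50.3%). None of the 35 was confined to CDM-CDO, but the share of all regions confined to that list is not given here, so this count has no background beside it. WDM-CDO alone held 7 (20%, against 16.1% of all regions), WDM-WDO alone 6 (17.1%, against 17.8%) and CDM-WDO alone 2 (5.71%, against 8.33%). These shares were near those of all regions. Another 4 were found in both lists of WD mothers and no other (11.4%, against 3.81% of all regions). At start sites, or gene ends for Nos3 and Thbd, a peak within 1 kb was called for 8 of 8 genes in WDM-WDO and for 7 in each other list, against 48.8%, 52.5%, 41.4% and 49.4% of all 21631 genes in the same order of lists. The gene without one differed, being Ednrb in WDM-CDO, Nos3 in CDM-WDO and Edn1 in CDM-CDO.

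**Figure D1:**
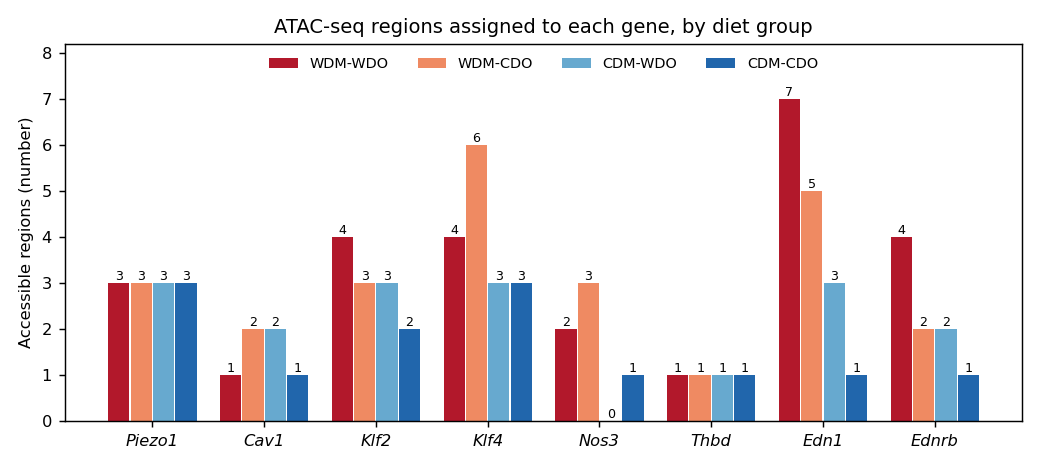
Number of accessible regions assigned to each gene (vertical axis) in the 4 diet groups, 1 peak list each, so the bars carry no error. Edn1 has 7 regions in WDM-WDO and 5 in WDM-CDO, and 3 in CDM-WDO and 1 in CDM-CDO, whereas Piezo1 has 3 and Thbd 1 in every list.

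Piezo1, which encodes a mechanically gated cation channel, had the same 3 regions in every list (chromosome 8, gene span 122481698 to 122551329). The peak at its start site had 97 reads at the summit in WDM-WDO and 98 in WDM-CDO, and 57 in CDM-WDO and 70 in CDM-CDO. Once the genome background is subtracted and each list is divided by its factor at 1445 strong regions of all 4 lists, these are 85.2, 67.3, 68.4 and 71.8 scaled reads, within a narrower range. Another region lay inside the gene, with its highest summits 3191 to 3367 bp downstream of the start site. WDM-WDO had 1 broad peak there (1582 bp), CDM-WDO had 2 separate ones (640 and 487 bp), and WDM-CDO and CDM-CDO had 1 each (653 and 434 bp). The remaining region stood upstream of the gene (122556142 to 122557508), nearest to Piezo1 and 10507 bp from the next gene, Cdt1. Its scaled reads were 83.3 in WDM-WDO, against 35.2 in WDM-CDO and 43.2 and 34.3 in CDM-WDO and CDM-CDO. WDM-WDO was above the other 3 lists there. Ratios between 2 lists were scaled at regions strong in those 2 lists, so they differ slightly from quotients of the scaled reads, and WDM-WDO stood at 1.93 times CDM-WDO and 2.32 times WDM-CDO, and at 2.50 and 1.76 times without scaling.

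Cav1, whose product caveolin-1 forms caveolae and holds the nitric oxide synthase in check, had 2 annotated start sites 1305 bp apart (chromosome 6, positions 17306335 and 17307640). Both sequences are given above, and each was called in only some of the lists. In WDM-CDO the peak covered the first start site (17306016 to 17306361, 24 reads, summit 85 bp upstream of it), as it did in CDM-WDO (17305989 to 17306759, 25 reads, summit 155 bp upstream). In CDM-CDO the peak lay just past the second start site (17307663 to 17308047, 25 reads) and had its summit 160 bp downstream of it. WDM-WDO had a single peak across both (17306101 to 17307856, 39 reads) with its summit 12 bp upstream of the second. The peaks of WDM-CDO and of CDM-WDO did not overlap that of CDM-CDO, so the gene had a start-site peak in all 4 lists, but not at the same start site. With lists of equal length the peak of WDM-CDO was lost. These peaks were weak, with a −log10 q, as deposited by the authors, of 8.94 in WDM-WDO and 3.79 in WDM-CDO, and 4.44 in CDM-WDO and 4.40 in CDM-CDO. Both remaining Cav1 regions were weaker still, 1 inside the gene in CDM-WDO (2.31) and 1 beyond its upper end in WDM-CDO (2.47).

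**Figure D2:**
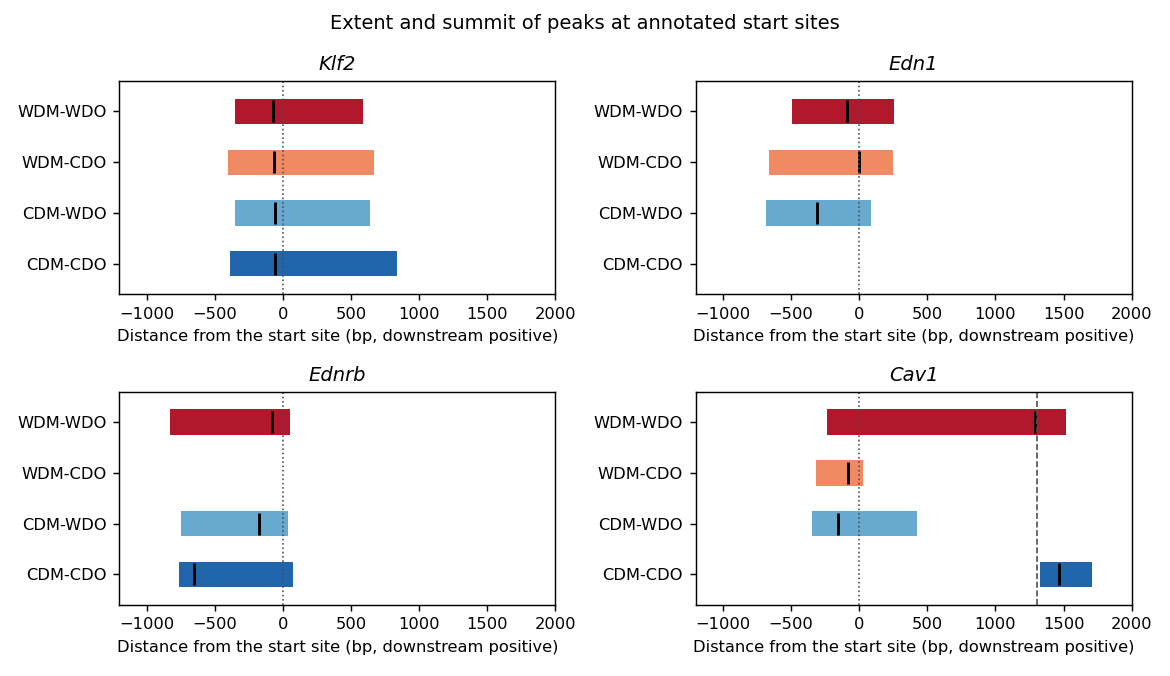
Extent (bars) and summit (black ticks) of each peak at the start sites of Klf2, Edn1, Ednrb and Cav1 in the 4 lists, against distance from the start site in bp; the dashed line marks the second start site of Cav1, 1305 bp from the first. Klf2 is covered alike in every list, Edn1 lacks a peak in CDM-CDO and Ednrb in WDM-CDO, and the Cav1 peak of CDM-CDO lies past the second start site.

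Klf2, the flow-induced factor that keeps endothelium quiescent, had the strongest peak of the set in every list, over its start site and the promoter shown above (chromosome 8, region 72318656 to 72319901). Its summit held 259 reads in WDM-WDO and 392 in WDM-CDO, and 230 in CDM-WDO and 247 in CDM-CDO. Each summit was upstream of the start site, by 70, 63, 55 and 57 bp in these lists, between the MEF2 motif and the CACCC match. On the scaled measure the 4 lists had 237, 281, 298 and 267 reads, a much smaller spread than the raw reads. An upstream region with summits 23181 to 23317 bp from the start site (72295363 to 72296357) was likewise called in every list, with 70 reads in WDM-WDO and 78 in WDM-CDO, and 63 in CDM-WDO and 62 in CDM-CDO. Other Klf2 regions were not shared by all. A region with its summit 15257 bp upstream in WDM-WDO (30 reads) and 15240 bp in CDM-WDO (29 reads) was called in neither CDO list. WDM-CDO alone had a region 6056 bp upstream (36 reads), and WDM-WDO alone had one just past the gene (72322243 to 72322777, 102 reads at a fold of 2.26 over a local background of 44.6 reads).

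Klf4, the related factor that shares many targets with Klf2, had 3 regions in all 4 lists and 3 in lists of WD mothers only (chromosome 4, gene span 55527137 to 55532475, minus strand). At its start site the summit held 92 reads in WDM-WDO and 122 in WDM-CDO, and 76 in CDM-WDO and 70 in CDM-CDO. Scaled, these were 80.5, 84.8, 93.7 and 71.8 reads, so the lists differed little in height. They differed in the position of the summit, which lay 105 and 77 bp upstream of the start site in WDM-WDO and WDM-CDO. In CDM-WDO and CDM-CDO it lay 597 and 566 bp upstream. Lists with the same mothers' diet thus had their summits close together, and apart from those of the other mothers' diet. The peaks themselves covered much the same stretch in these lists (748, 1047, 934 and 871 bp wide), so the difference is one of the summit within the peak. A far downstream region (55488725 to 55489487), its summits 43132 and 43405 bp from the start site, was called in WDM-WDO with 36 reads and in WDM-CDO with 24, and in neither list of CD mothers. A nearer downstream region, with summits at 17417 to 17556 bp, had 46 reads in WDM-WDO and 53 in WDM-CDO, and 42 in CDM-WDO and 46 in CDM-CDO, with little difference between the lists. A region inside the gene had 69, 64, 47 and 47 reads, and WDM-CDO had 2 separate peaks in it. Upstream of the gene 2 regions were called in WDM-CDO alone, with 19 and 26 reads.

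Nos3, which encodes the endothelial nitric oxide synthase, was the 1 member with no peak at all in a list, that of CDM-WDO (chromosome 5, gene span 24364816 to 24384474). Its strongest region (24383210 to 24383867) lay inside the gene near the upper-coordinate end, 314 bp from the span of the autophagy gene Atg9b. The summit held 61 reads in WDM-WDO, 83 in WDM-CDO and 43 in CDM-CDO, or 51.4, 56.4 and 42.1 scaled reads. From the reads of WDM-WDO, 44.3 reads would be expected in CDM-WDO at the ratio seen at strong shared regions, and from those of CDM-CDO 37.1, where 26 would have sufficed for a call at the local background scaled likewise. Such expected reads come from lists in which the region was called, and so from values chosen for being high. At the other end, a region below the gene (24360899 to 24361366), 3547 bp from it in WDM-WDO and 3450 bp in WDM-CDO, had 31 reads in WDM-WDO and 39 in WDM-CDO and no call with CD mothers. WDM-CDO alone had a peak 88 bp below the lower-coordinate end (36 reads).

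Thbd, which encodes thrombomodulin, had 1 broad region in every list, across the upper-coordinate end of the gene (chromosome 2, 148407099 to 148409501). It held 69 reads in WDM-WDO and 76 in WDM-CDO, and 56 in CDM-WDO and 38 in CDM-CDO, and spanned 2157, 2010, 2343 and 1888 bp. CDM-CDO was the lowest on the scaled measure too, with 36.5 reads, against 58.9 in WDM-WDO, 51.3 in WDM-CDO and 67.1 in CDM-WDO. Scaled between these 2 lists, WDM-CDO had 1.43 times the reads of CDM-CDO, where the median over all 16196 shared regions was 0.942 and the middle 50% lay between 0.803 and 1.09. CDM-WDO had 1.84 times those of CDM-CDO, and 1.47 times without scaling. The summit lay inside the gene by 96 bp in WDM-WDO and 95 bp in WDM-CDO, and beyond the upper end by 44 bp in CDM-WDO and 21 bp in CDM-CDO.

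**Figure D3:**
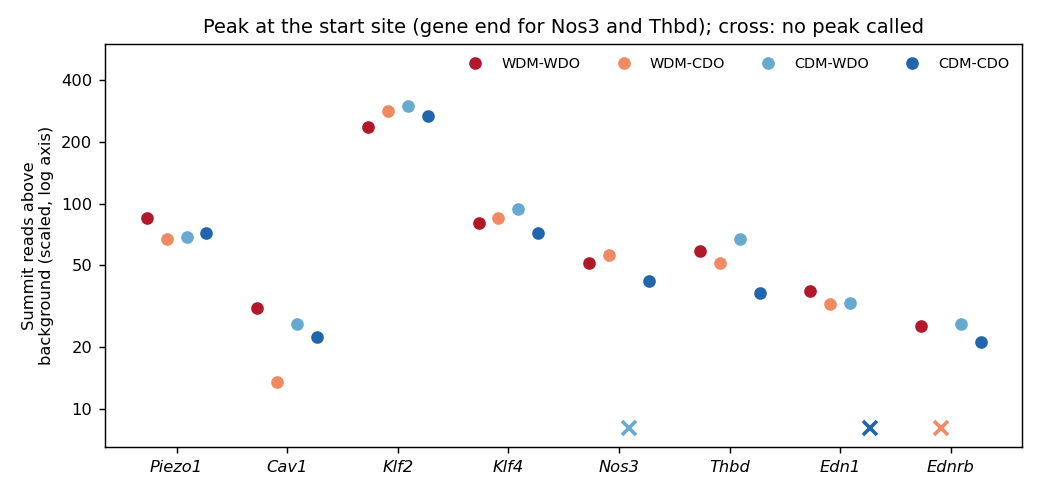
Reads at the summit of the strongest peak within 1 kb of the start site (gene end for Nos3 and Thbd), less genome background and scaled between lists, on a log axis; 1 point per list and a cross where no peak was called. Klf2 lies between 237 and 298 scaled reads, and the 3 crosses are Nos3 in CDM-WDO, Edn1 in CDM-CDO and Ednrb in WDM-CDO.

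Edn1, the gene of the vasoconstrictor endothelin-1, differed most between the lists in its number of regions, with 7 in WDM-WDO and 5 in WDM-CDO, and 3 in CDM-WDO and 1 in CDM-CDO (chromosome 13, gene span 42301476 to 42307990). Its 6 additional regions in WDM-WDO over CDM-CDO were matched or exceeded at 62 of the 16243 genes with a region (0.382%), a cut-off set by Edn1 itself. Most of these genes had too few regions to reach it, with a median of 2. Only 1207 had 7 or more, as Edn1 did. With every list shortened to its 18962 strongest peaks Edn1 had 5, 3, 3 and 1 regions. With assignment within 25 kb, which drops the upstream regions, it had 3, 2, 2 and 0. Over all its regions Edn1 had 236 scaled reads on 4651 bp in WDM-WDO and 99.8 on 3384 bp in WDM-CDO, and 100 on 1618 bp in CDM-WDO and 21.1 on 404 bp in CDM-CDO. The start site had 46 reads in WDM-WDO and 50 in WDM-CDO, and 30 in CDM-WDO and no call in CDM-CDO. Where there was a call, the scaled reads were alike, at 37.4, 32.3 and 32.6. The summit lay 87, 2 and 307 bp upstream of the start site in these 3 lists, so that in CDM-WDO it fell before the promoter sequence shown. In CDM-CDO, 34.8 reads would be expected from WDM-CDO and 34.4 from CDM-WDO, where 19 and 22 would have sufficed for a call. These expected reads again come from lists with a call, and so from values chosen for being high. Of all 65149 such cases over all genes, 79.3% would likewise be expected to reach the reads needed.

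A region downstream of the Edn1 gene (42328622 to 42329306), with summits 27258 to 27300 bp from the start site, followed the same pattern as the start site. It had 52 reads in WDM-WDO and 35 in WDM-CDO, and 30 in CDM-WDO and no call in CDM-CDO. From WDM-CDO and CDM-WDO, 24.7 and 34.4 reads would be expected in CDM-CDO and 15 sufficed, with the same limit on such expected reads. Upstream, a group of 4 regions had summits 42807 to 56955 bp from the start site, and the next gene on that side, Hivep1, was 59050 bp or more from them. The farthest (42244080 to 42244975) was the only Edn1 region of CDM-CDO, with 60 reads in WDM-WDO and 33 in WDM-CDO, and 32 in CDM-WDO and 24 in CDM-CDO. Its neighbour (42245316 to 42246213) had 50 reads in WDM-WDO and 27 in WDM-CDO, and a region at 42258302 to 42259166 had 35 and 20. Neither was called with CD mothers. In WDM-WDO these 3 regions had 2.49, 2.59 and 2.54 times the scaled reads of WDM-CDO, against a median of 1.09 over all 15625 shared regions (middle 50% 0.884 to 1.42). Without scaling they had 1.82, 1.85 and 1.75 times, while the start site had 1.14 times scaled and 0.920 times unscaled. The last 2 regions, 1 upstream and 1 inside the gene, were in WDM-WDO alone, with 24 and 28 reads. WDM-WDO was also the list in which 9 of 10 macrophage and monocyte markers had a start-site or gene-end peak, against 3 in WDM-CDO. Their part in these values was not tested.

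**Figure D4:**
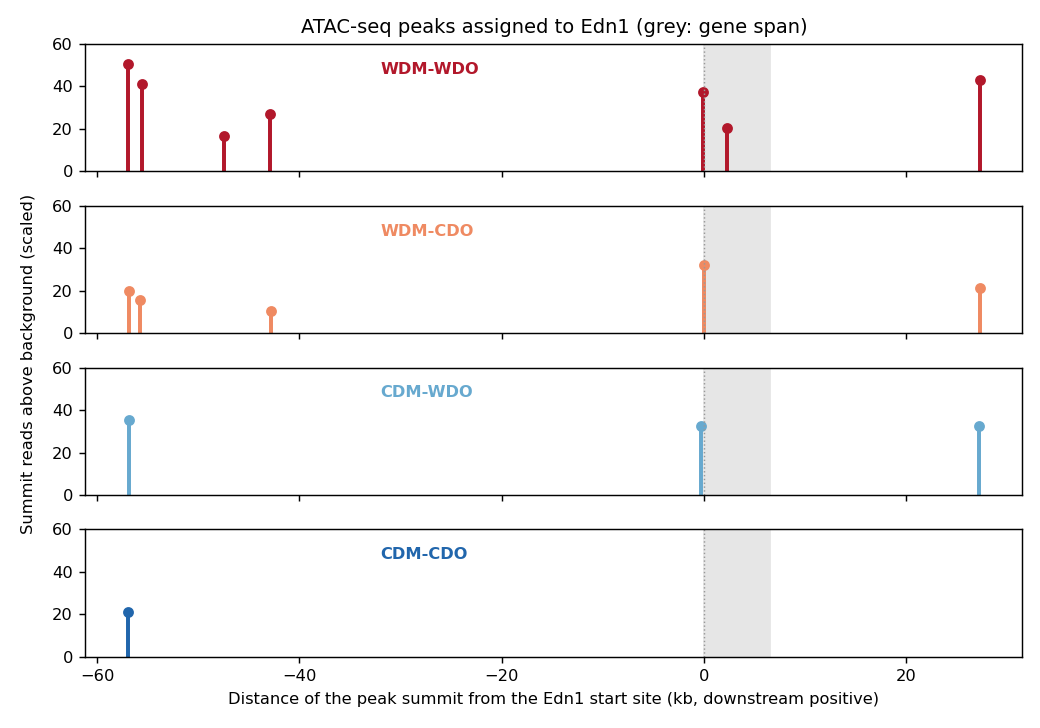
Peaks assigned to Edn1 in the 4 lists: scaled summit reads above background (vertical axis) against the distance of the summit from the start site in kb, with the gene span in grey. WDM-WDO has 7 stems, WDM-CDO 5, CDM-WDO 3 and CDM-CDO 1, which is the farthest upstream.

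Ednrb, the gene of the endothelin B receptor, had 7 regions, 6 of them in a single list, more than any other member (chromosome 14, gene span 103814615 to 103844508, minus strand). At the start site (region 103843625 to 103844529) the summit held 33 reads in WDM-WDO, 25 in CDM-WDO and 24 in CDM-CDO, and no peak was called in WDM-CDO. Scaled, the 3 lists were alike at 25.2, 25.9 and 21.1 reads. In WDM-CDO, 39.6 reads would be expected from WDM-WDO and 34.0 from CDM-CDO, where 23 and 21 would have sufficed. These expected reads too come from lists with a call, and so from values chosen for being high. Among all genes, 23 shared this combination, a start-site or gene-end peak in every list but WDM-CDO (0.106%). The combination of Edn1 was shared by 139 (0.643%) and that of Nos3 by 1272 (5.88%). These combinations were set by the members themselves. WDM-CDO was the longest list (28319 peaks) and had such a peak at most genes (52.5%), whereas Nos3 lacked one in the shortest. The Ednrb start-site peaks were weak, at a −log10 q of 4.04 to 6.27. The summit lay 78 bp upstream of the start site in WDM-WDO, 175 bp in CDM-WDO and 655 bp in CDM-CDO. The regions of a single list were weak, at a −log10 q of at most 5.10, with 3 in WDM-WDO, 2 in WDM-CDO and 1 in CDM-WDO.

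Regions were merged anew for each pair of lists, so that peaks joined by a peak of another list can count apart. The first comparison set the mothers' diets against each other in CDO offspring. WDM-CDO had 14 of 27 regions to itself (51.9%, 95% Wilson interval 34.0 to 69.3%), against 32.4% of all regions, and CDM-CDO had 2 to itself (7.41%, 2.06 to 23.4%), against 13.8%. With lists of equal length WDM-CDO had 7 and CDM-CDO 3 to itself, and within 25 kb WDM-CDO had 9. The shares of all regions at these settings are not given here, so these counts cannot be set against them. The same holds for counts in 1 list alone at changed settings below, of regions or of pathway genes. Edn1 gave 4 of the 14, Klf4 3, Nos3, Cav1 and Ednrb 2 each, and Klf2 1. The 2 of CDM-CDO were the second start site of Cav1 and the start site of Ednrb. Among the 11 shared regions the median scaled ratio was 1.05, with a range of 0.778 to 1.43, against 0.942 over all 16196 shared regions. The members' median was 1.5 without scaling and 1.30 with reads divided by the genome background. The intervals on these shares cover counting error only. They treat regions as independent, although several belong to the same gene and each group has 1 list, so they are no test of the differences. The 4 comparisons share lists, so they do not support one another.

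In offspring given WD again, WDM-WDO had 11 of 28 regions to itself (39.3%, 23.6 to 57.6%), against 43.1% of all regions. CDM-WDO had 2 (7.14%, 1.98 to 22.6%), 1 each inside Ednrb and Cav1, against 16%. The share of WDM-WDO was thus near the background, and with lists of equal length it had 7. Edn1 gave 4 of the 11, Ednrb 3, Nos3 2, and Klf2 and Klf4 1 each. The 15 shared regions had a median scaled ratio of 1.01, from 0.720 at the Klf2 region of the 2 WDO lists to 1.93 at the region upstream of Piezo1, against 1.06 over all 11902 shared regions.

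The offspring's own diet was compared within each mothers' diet, together with the tag in the peak names. Lymphocyte markers with a start-site or gene-end peak also differed between these lists. They numbered 4 of 10 in WDM-WDO and 7 in WDM-CDO, and 1 in CDM-WDO and 7 in CDM-CDO, and their part was not tested. With CD mothers, CDM-WDO had 7 of 20 regions to itself (35%, 18.1 to 56.7%), against 21.5% of all, and CDM-CDO had 2 (10%, 2.79 to 30.1%), against 36.4%. The members thus went the other way from the whole lists, in which CDM-CDO had more regions to itself. Edn1 and Cav1 gave 2 of the 7 each, and Klf2, Piezo1 and Ednrb 1 each, while the 2 of CDM-CDO were those near the upper end of Nos3 and at the second start site of Cav1. The Piezo1 region is the second CDM-WDO peak (122548847 to 122549333) inside the gene, which a peak of WDM-WDO joins to the shared region. With WD mothers, WDM-WDO had 8 of 33 regions to itself (24.2%, 12.8 to 41.0%), against 25% of all, and WDM-CDO 7 (21.2%, 10.7 to 37.8%), against 29.7%. Ednrb gave 4 of the 8, and Edn1 and Klf2 2 each, while Klf4 and Ednrb gave 2 each of the 7 in WDM-CDO alone. With lists of equal length these counts were 8 and 3. The median scaled ratio at shared regions was 1.23 for CDM-WDO over CDM-CDO, above 1 at 10 of 11, and 1.30 for WDM-WDO over WDM-CDO, above 1 at 14 of 18, but with reads divided by the genome background instead these medians turned to 0.919 and 0.950.

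**Figure D5:**
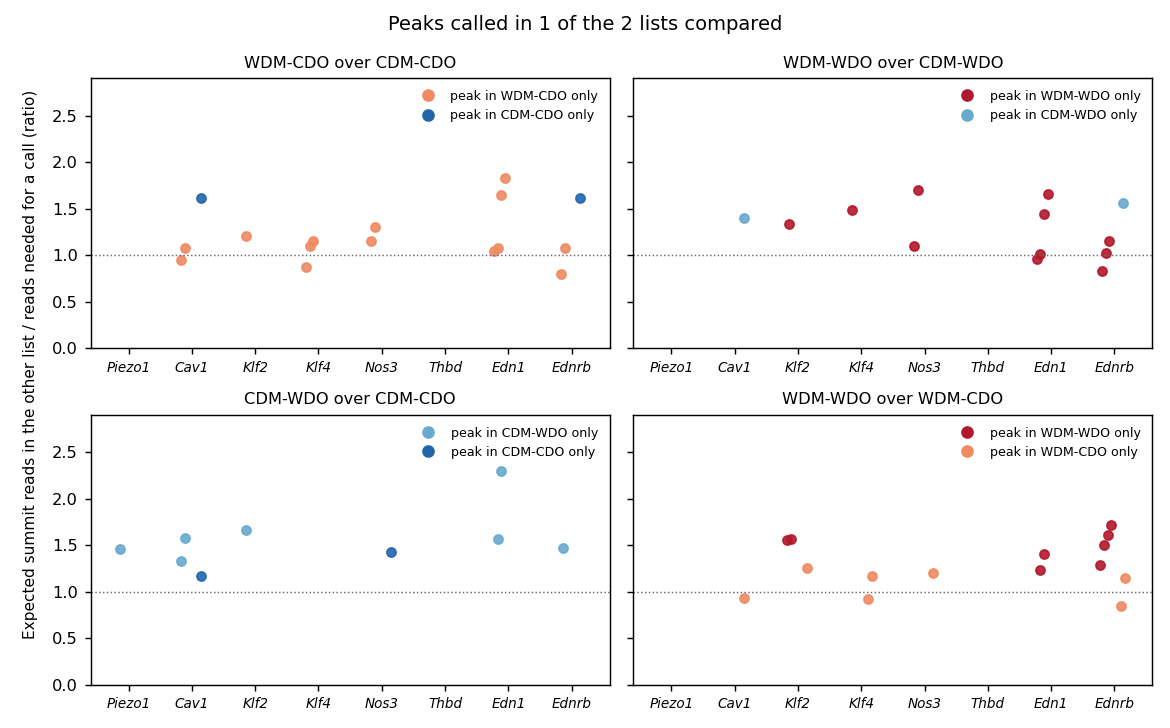
For each region called in 1 of 2 lists, the reads expected in the other list divided by the reads needed for a call there (vertical axis, ratio), by gene and comparison. Points above the dotted line at 1 would be expected to be called, but the expected reads come from lists with a call, and so from values chosen for being high. Over the 4 comparisons 45 of 53 lie at or above 1, against 79.3% of all such regions, and the highest is 2.29 for the downstream region of Edn1 missing in CDM-CDO.

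Of the 53 cases of a region called in 1 of 2 lists compared, 45 would be expected to reach the number of reads needed in the other list (84.9%), against 79.3% of 65149 such cases over all genes, a share near that of the members. The 8 that would not were weak regions of Edn1, Ednrb, Klf4 and Cav1, with 15 to 28 reads. The true local background in a list without a call is not known.

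A further 54 genes of the same pathways were counted. A peak within 1 kb of a start site, or of a gene end where no start site was given, is called a start-site peak here. Such peaks were found at 48.8% and 52.5% of all genes in WDM-WDO and WDM-CDO, and at 41.4% and 49.4% in CDM-WDO and CDM-CDO. All 7 genes of the MEK5-ERK5-MEF2 route, which carries the flow signal to Klf2, had a start-site peak in every list. Genes of nitric oxide supply and response had one at 9, 11, 6 and 9 of 12 in WDM-WDO, WDM-CDO, CDM-WDO and CDM-CDO. The other 5 genes of the endothelin axis had one at 1 of 5 in every list. Caveolae genes had one at 3, 4, 4 and 4 of 6, shear sensing genes at 5, 5, 4 and 4 of 8, partners of thrombomodulin at 2, 2, 1 and 1 of 4, and other tone genes at 3, 8, 4 and 6 of 12.

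Between WDM-CDO and CDM-CDO, 31 of 47 pathway genes with a region had at least 1 in WDM-CDO alone, against 42.1% of all genes, and 8 had one in CDM-CDO alone, against 22.1%. With lists of equal length these counts were 12 and 10. Pecam1, the junction protein of the flow-sensing complex, led with 5 regions in WDM-CDO alone and 1 shared, followed by the G protein gene Gnaq with 4 and the natriuretic peptide clearance receptor gene Npr3 with 3. In CDM-CDO alone Mef2c had 3, Gch1, which starts the synthesis of the cofactor of nitric oxide synthase, 2, and the endothelin-converting enzyme gene Ece1 1. These genes were mixed, as Mef2c also had 2 and Gch1 and Ece1 1 each in WDM-CDO alone. Npr3 likewise had 1 in CDM-CDO alone. Between WDM-WDO and CDM-WDO, 29 of 45 had a region in WDM-WDO alone, against 51.3%, and 16 one in CDM-WDO alone, against 23.6%. With lists of equal length they were 19 and 17, and at a −log10 q of at least 3 they were 25 and 6. Gnaq led with 5 and Mef2a had 4, while Cavin2, which shapes caveolae, and the cGMP-dependent kinase gene Prkg1 had 3 each in CDM-WDO alone and Ece1 had 2. Prkg1 and Ece1 were mixed, with 2 each in WDM-WDO alone as well, and Gnaq had 1 in CDM-WDO alone.

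For the offspring's diet with CD mothers, 21 of 44 pathway genes had a region in CDM-WDO alone, against 28.1% of all genes, and 19 one in CDM-CDO alone, against 44.4%. At a −log10 q of at least 3 the counts were 12 and 17, which turns their order. Gnaq and Prkg1 had 3 each and Ece1 2 in CDM-WDO alone, and Mef2a had 4 and Prkg1 and Mef2c 2 each in CDM-CDO alone. Ece1 also had 2 in CDM-CDO alone, and Mef2c 1 in CDM-WDO alone. With WD mothers, 23 of 48 had one in WDM-WDO alone, against 36.4%, and 32 one in WDM-CDO alone, against 42.6%. With lists of equal length the counts were 17 and 14, which turns their order, and at a −log10 q of at least 3 they were 21 and 22. Gnaq had 5 and Gch1 2 in WDM-WDO alone, whereas Pecam1 had 5 and Cavin2 and Npr3 3 each in WDM-CDO alone. Gnaq also had 2 and Gch1 1 in WDM-CDO alone, and Npr3 1 in WDM-WDO alone. Of the 5 caveolae genes with a region in either list, 0 had one in WDM-WDO alone and 4 had one in WDM-CDO alone. Beside these values stand the macrophage and monocyte markers, at 9 of 10 in WDM-WDO and 3 of 10 in WDM-CDO. Lymphocyte markers stood at 4 of 10 and 7 of 10 in the same lists. The part of these cells was not tested.

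Genes most like each member were sought by the number of regions with each of the 15 combinations of lists. Klf2 had the same numbers as Irf4 and Papolg, and Edn1 the same as Ankrd33b. Klf4 differed from Prkci, and Ednrb from Adcy2, by 1 region in total. Piezo1, Cav1 and Nos3 had the same numbers as 29, 37 and 5 genes, and Thbd, with its single region in all lists, the same as 3730. These likenesses rest on 4 lists.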

How the data were processed

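ATAC-seq peak lists in the narrowPeak format, 1 for each of 4 groups of 2 samples, were used as deposited. Build GRCm38 (mm10) and, in no stated order, MACS2 2.2.9.1, Bowtie2 2.4.5, deepTools 3.5.4, SAMtools 1.13, Trim Galore 0.6.10 and FastQC 0.12.1 are listed, per the submitters' processing notes, with no settings. The sources used here give neither whether a group's 2 samples were pooled nor any shift of read ends for the transposase. Each peak has a fold enrichment over local background (a ratio), a −log10 p, a −log10 q and a score, all the authors' deposited values. The score column was not used, and the lowest −log10 q was 1.30 to 1.31. These values are the authors' and served to describe or filter peaks within a list.

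Reads at each summit were recovered as the whole number that gives both the deposited fold and −log10 p under a Poisson background with 1 read added to both in the fold (relative tolerance 0.0001). This worked for at least 99.87% of each list's peaks, and for at most 1.55% with the tail begun 1 read lower. The lowest background of a list was its genome background. Ratios between 2 lists were divided by their median at regions in the strongest 10% of both. PCR duplicates and depth per sample are unknown from these lists.

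Peaks on chromosomes 1 to 19 and X were assigned to the nearest of 21631 protein-coding spans within 100 kb (RefSeq, GRCm38.p6) and merged at 1 bp of overlap. Start sites came from RefSeq promoters for 17274 genes, and both span ends served for 4357. Python 3.11.15, pandas 2.3.3, SciPy 1.17.1 and statsmodels 0.14.6 were used, and the steps were tested on simulated data. All 8 members were named, and of the pathway genes the 3 with most regions in 1 list only per comparison and direction (ties by the highest −log10 q), except 1 gene that is not reported here. Genes most like a member were named where 3 or fewer were at the smallest difference. Members and lists were chosen with earlier results of these data known. Alternatives were the distance, overlap, window, peak threshold, list length and scaling.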

Additional observations from a re-analysis of the deposited data

Results flagged for a closer look

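Opposite directions of the mothers' diet under the 2 offspring diets were seen for 1 count of regions. Cav1 had 1 region fewer with WD mothers than with CD mothers in WDO offspring (a difference of -1) and 1 more in CDO offspring. Of the shared regions, 6 had scaled log2 ratios of opposite sign, given here for WD over CD mothers. They were the farthest upstream region of Edn1 (0.52 in WDO, -0.05 in CDO), Thbd (-0.18 and 0.52), the Klf4 regions inside the gene (0.10 and -0.10) and at the start site (-0.21 and 0.27), the Klf2 start site (-0.33 and 0.11) and the Piezo1 start site (0.32 and -0.06). With 1 list per group these differences were not tested, and none of the 6 had opposite signs without scaling or with reads divided by the genome background.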

How the results depend on the processing

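No paired analysis was possible because each group has 1 peak list and the sample numbers are not separated in it; for the same reason no sample could be left out. Every list kept its count of start-site or gene-end peaks within 1.5 times in windows of 500 bp and 2 kb, and an overlap of 50% changed no total by more than 1.5 times. With a window of 500 bp the Nos3 call was lost in WDM-WDO and CDM-CDO, and at equal list lengths that of Cav1 in WDM-CDO.

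Assignment within 10 kb left 16 member regions in WDM-WDO and 15 in WDM-CDO. It left 7 in WDM-CDO alone against CDM-CDO and 6 in WDM-WDO alone against CDM-WDO, and between WDM-WDO and WDM-CDO 5 and 4 in 1 list alone. Within 25 kb, 9 were in WDM-CDO alone against CDM-CDO and 7 in WDM-WDO alone against CDM-WDO. At equal list lengths Edn1 had 5, 3, 3 and 1 regions in WDM-WDO, WDM-CDO, CDM-WDO and CDM-CDO. Then 7 member regions remained in WDM-CDO alone and 7 in WDM-WDO alone against the lists of CD mothers, and 3 in WDM-CDO alone against WDM-WDO. Pathway genes then numbered 12, 19 and 14 in these 3 cases. With a −log10 q of at least 3, 1 member region was in CDM-WDO alone against WDM-WDO, and 5 and 4 were in WDM-WDO and WDM-CDO alone. Pathway genes were then 20 in WDM-CDO and 5 in CDM-CDO alone, 6 in CDM-WDO alone against WDM-WDO and 12 against CDM-CDO. Reads divided by the genome background turned the median ratio at shared regions to 0.919 for CDM-WDO over CDM-CDO and 0.950 for WDM-WDO over WDM-CDO. Shorter distances and lists hold fewer peaks by construction; other causes were not tested. Counts in 1 list alone at these settings have no share of all regions or genes beside them. The number of reads in a list without a call is unknown, which limits all statements on missing peaks.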
